A study of Homo sapiens with 6 samples.

Results

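The genes described here belong by symbol to families known for enzymes and subunits that modify histones or DNA or that move nucleosomes. Some members are best known for other roles, as given below for SIRT5, PRMT3, HDAC6 and ARID5A. A gene was a member if its symbol on the array platform belonged to the KDM, KMT, SETD, HDAC, SIRT, CHD, SMARC, ARID, KAT or PRMT series, or was one of EZH1, EZH2, EED, SUZ12, TET1, TET2, TET3, DNMT3A and DNMT3B, and if a probe for it was detected (detection p under 0.01) on at least 3 of the 6 arrays. Of 108 such genes named on the platform, 91 were measured, among 10598 genes measured in all, and each is represented by its brightest probe. Both groups were Hep3B cells, an established human hepatocellular carcinoma line, and each group had 3 samples. The sorafenib group received the multikinase inhibitor sorafenib for 24 h, at a dose that the labels give as 3 mM, and the control group received the solvent DMSO for 24 h. Micromolar doses are usual for this compound in culture, and the labelled unit could not be checked. Samples are numbered within a group without a statement that the numbers mark separate cultures, so p-values may reflect technical variation alone.

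Chromatin modifiers are commonly sorted into writers, erasers, readers and remodelers. Writers add methyl or acetyl groups to histone tails (KMT, SETD, PRMT, KAT and the Polycomb enzyme EZH2) or to cytosine in DNA (DNMT3A, DNMT3B), erasers take them off (KDM, HDAC, SIRT, and the TET enzymes that oxidise methylcytosine), and remodelers of the SMARC and CHD families use ATP to slide or evict nucleosomes. In liver cancer, genes of this kind, ARID1A and ARID2 among them, are recurrent targets of mutation, and EZH2 is often highly expressed.

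On the log2 intensity scale used throughout, 11 of the 91 members rose with sorafenib and 8 fell, while 72 did not pass the threshold of a limma adjusted p of 0.05 over all probes. That is 20.9% of the members, against 36.7% of all 10598 genes (19.7% higher and 17% lower). The median member differed by -0.01 (sorafenib minus control), and the median gene of the whole array by 0.00. The median size of a difference, regardless of sign, was 0.15 for the members and 0.20 for all genes. Median levels were 9.51 for the members and 9.15 for all genes. The number of members that fell was 4 without control replicate 1, 5 without sorafenib replicate 2 and 2 when arrays were centred on the median of all probes instead of quantile normalized. That centring gave 12 members higher and 2 lower (85.7% of called members higher, against 57.9% with quantile normalization), and 69.8% of all called genes higher, against 53.6%. Centring on the median of the tested probes alone gave 12 members higher and 10 lower (54.5% of called members higher), with 3879 genes past the threshold.

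**Figure D1:**
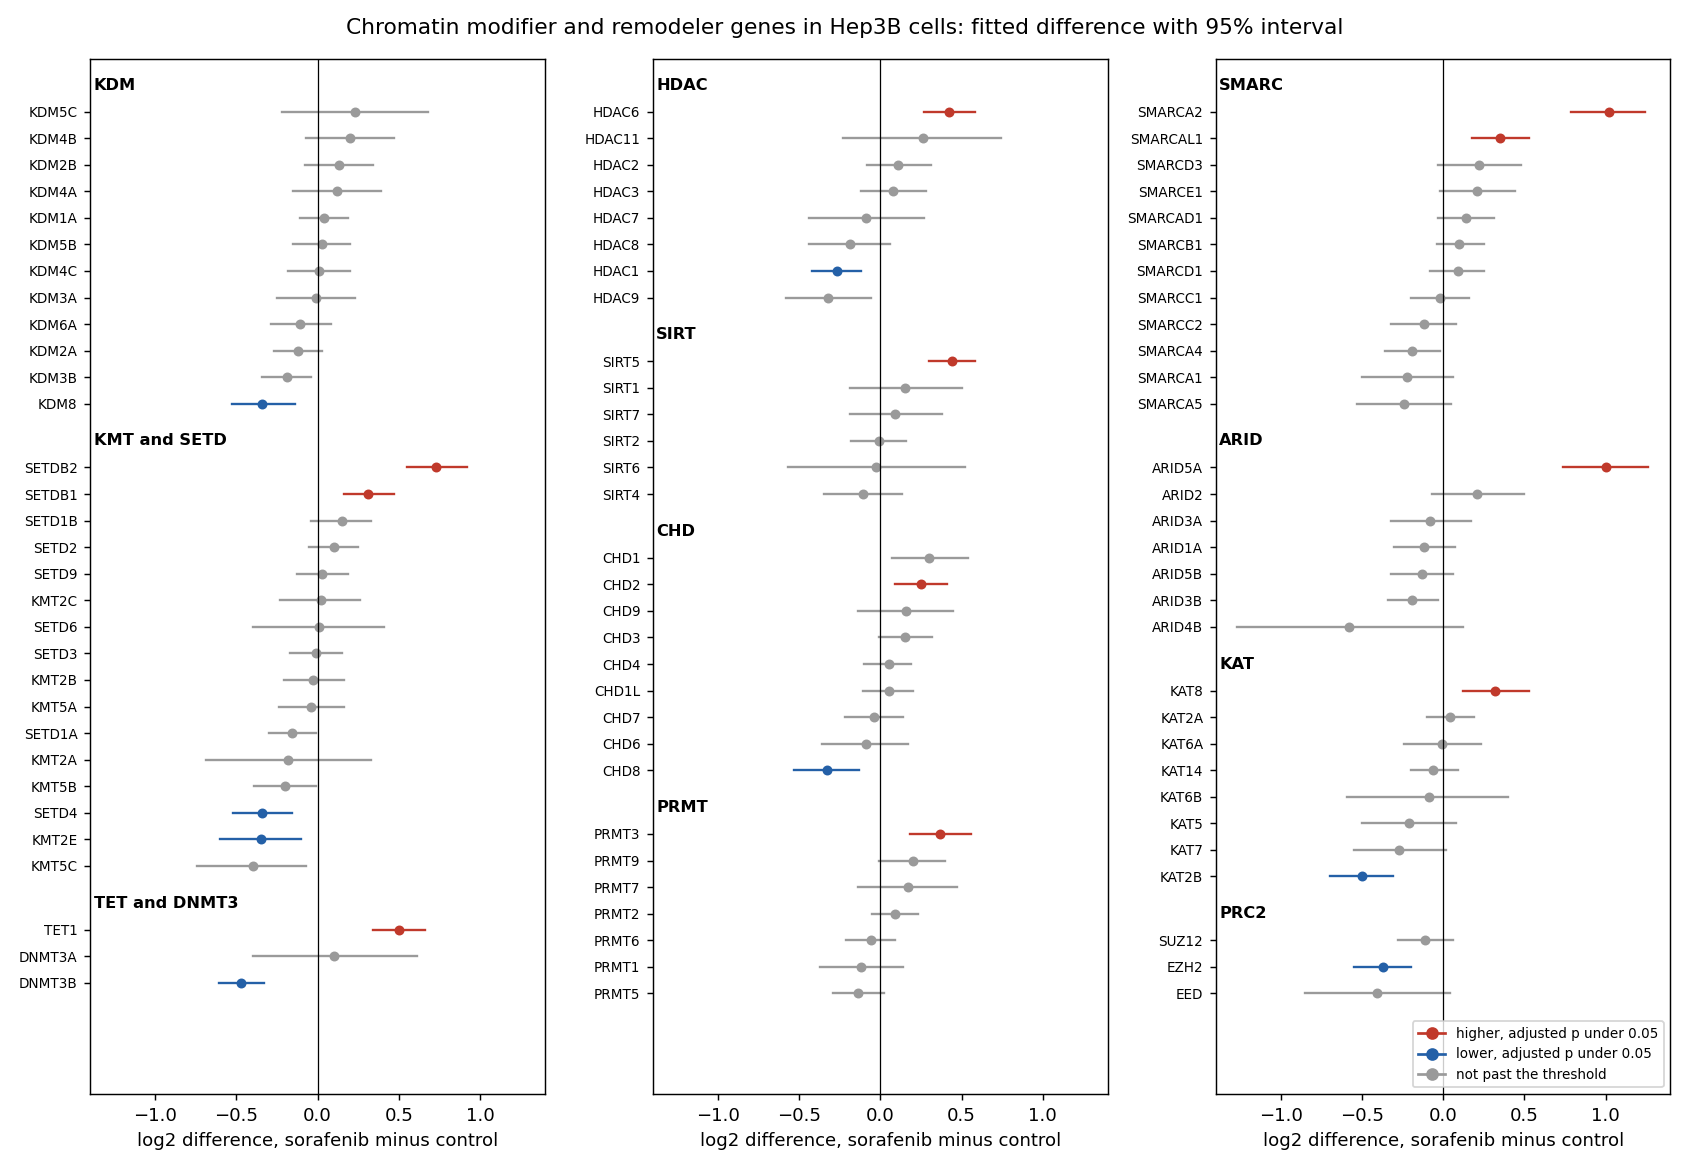
Fitted log2 differences (x axis, sorafenib minus control) of the 91 measured members, sorted by size within each family, with 95% intervals; red marks members higher and blue members lower at an adjusted p under 0.05, and grey the others. SMARCA2 and ARID5A, at 1.02 and 1.00, lie apart from the rest, and most grey intervals lie within 0.5 of zero.

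Of the 72 members that did not pass, 58 had a 95% interval that lay wholly between -0.5 and 0.5, so larger changes on these probes fell outside their intervals. The other 14 had wider or off-centre intervals, and in these a change of that size could not be judged. A miss of the threshold does not show that a gene was unaffected. The 17 named genes that were not measured were detected on 2 arrays (EZH1 and KDM7A), on 1 array (SETD7) or on none, among them HDAC4, HDAC5, HDAC10, SIRT3, KDM1B, KDM6B, KMT2D, ARID1B and TET2. Just inside the rule, SIRT6 and KAT6B were detected on 2 sorafenib and 2 control arrays each. The other 89 members were detected on all 6 arrays.

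Promoter sequences are shown for the 3 members that rose most and for 3 that fell (KAT2B and DNMT3B with the deepest called falls, and EZH2 as the catalytic Polycomb gene), so that the short motifs searched for can be read in place. The set of RefSeq promoters used, on GRCh38.p14, held 80 of the 91 members and 18 of the 19 that changed, matched by symbol. The sequences were taken from that set, with the first start listed for a gene. Each runs 5′ to 3′ on the gene's strand from 250 bases before the annotated start to 30 bases after it: SMARCA2 at chr9:2015097-2015376 (plus strand), ARID5A at chr2:96536502-96536781 (plus strand), SETDB2 at chr13:49444024-49444303 (plus strand), KAT2B at chr3:20040196-20040475 (plus strand), DNMT3B at chr20:32779602-32779881 (plus strand) and EZH2 at chr7:148884262-148884541 (minus strand). Capitals mark matches, on either strand, to the motifs named below the sequences.
SMARCA2: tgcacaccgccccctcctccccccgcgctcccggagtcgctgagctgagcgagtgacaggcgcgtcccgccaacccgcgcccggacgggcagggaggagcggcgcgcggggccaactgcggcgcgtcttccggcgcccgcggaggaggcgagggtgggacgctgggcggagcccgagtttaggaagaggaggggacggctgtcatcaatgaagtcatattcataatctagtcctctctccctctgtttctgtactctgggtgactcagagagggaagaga
ARID5A: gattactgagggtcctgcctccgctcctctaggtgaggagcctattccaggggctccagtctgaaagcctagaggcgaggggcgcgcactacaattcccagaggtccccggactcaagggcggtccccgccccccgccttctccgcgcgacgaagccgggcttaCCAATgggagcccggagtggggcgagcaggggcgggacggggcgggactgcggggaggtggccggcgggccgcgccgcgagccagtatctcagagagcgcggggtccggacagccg
SETDB2: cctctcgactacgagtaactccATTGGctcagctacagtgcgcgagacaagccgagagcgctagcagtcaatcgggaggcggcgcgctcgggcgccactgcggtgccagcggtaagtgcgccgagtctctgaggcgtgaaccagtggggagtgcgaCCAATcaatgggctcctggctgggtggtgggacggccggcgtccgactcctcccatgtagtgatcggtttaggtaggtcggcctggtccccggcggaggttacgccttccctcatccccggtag
KAT2B: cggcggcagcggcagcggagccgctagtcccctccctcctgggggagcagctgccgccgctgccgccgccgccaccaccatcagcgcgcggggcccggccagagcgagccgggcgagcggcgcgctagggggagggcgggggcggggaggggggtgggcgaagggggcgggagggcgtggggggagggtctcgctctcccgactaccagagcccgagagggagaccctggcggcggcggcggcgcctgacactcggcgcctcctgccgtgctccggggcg
DNMT3B: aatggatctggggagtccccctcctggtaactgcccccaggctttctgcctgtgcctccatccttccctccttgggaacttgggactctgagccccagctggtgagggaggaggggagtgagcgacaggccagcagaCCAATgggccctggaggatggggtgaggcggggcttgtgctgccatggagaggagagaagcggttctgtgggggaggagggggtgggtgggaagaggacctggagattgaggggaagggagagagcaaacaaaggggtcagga
EZH2: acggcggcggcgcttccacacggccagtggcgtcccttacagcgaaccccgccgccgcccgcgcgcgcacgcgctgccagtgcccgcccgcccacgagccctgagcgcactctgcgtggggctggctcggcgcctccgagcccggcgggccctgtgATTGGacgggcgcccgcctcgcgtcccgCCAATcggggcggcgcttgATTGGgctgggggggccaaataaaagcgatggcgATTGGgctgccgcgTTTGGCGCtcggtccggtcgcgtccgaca

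The motifs searched were the E2F type octamers TTTCCCGC, TTTGGCGC, TTTCGCGC and TTTGCCGC, the C/EBP-ATF composite type TGATGNAAN, the E-box CACGTG and the CCAAT box. The E2F type is bound by factors that drive genes of DNA replication, and the composite type by ATF4 and CHOP during amino acid and endoplasmic reticulum stress. An E2F type octamer was found in 1 of 8 promoters of members that fell, that of EZH2, just downstream of its start, in none of 10 promoters of members that rose, and in 3.15% of all 27305 promoters. The composite type was found in none of these 18 and in 3.49% of all promoters. The CCAAT box was in 4 of 8 promoters of members that fell, 3 of 10 of those that rose and 34.7% of all, with 4 copies in the EZH2 promoter. CACGTG lay in 2 of the 10 promoters of members that rose, SETDB1 and PRMT3, in none of the 8 of members that fell, and in 7.14% of all. No match to one motif overlapped a match to another in the promoters printed, and a match is a run of letters, not a known binding site.

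Genes of the KMT and SETD families, many of which encode histone lysine methyltransferases, divided into 2 that rose, 2 that fell and 12 that did not pass. Their median difference was -0.02. SETDB2, a SET domain gene linked to H3K9 methylation, stood at 8.29, 8.38 and 8.52 on the sorafenib arrays, against 7.62, 7.68 and 7.68 on the control arrays. All sorafenib arrays were above all control arrays, and the rise was 1.66-fold (log2 0.73 ± 0.08, SE, limma adjusted p = 0.000737, n = 3 per group). SETDB1, the H3K9 methyltransferase recruited by KRAB zinc finger proteins through TRIM28, was at 10.66, 10.60 and 10.60 in sorafenib cells and 10.35, 10.23 and 10.33 in control cells. Its rise was smaller, at 0.31 ± 0.07 (limma adjusted p = 0.0116). Both SETDB genes kept their calls under each of the 17 alternative analyses.

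SETD4, a SET domain methyltransferase gene, was lower in sorafenib cells by 0.34 (log2 -0.34 ± 0.08, limma adjusted p = 0.0132), with values of 7.45, 7.44 and 7.53 against 7.93, 7.75 and 7.77 in control cells. The groups were clear of each other, and centring on the median of all probes gave -0.22 and no call. KMT2E, an MLL relative with a chromatin-reading PHD finger, was at 8.5, 8.11 and 8.22 in sorafenib cells and at 8.61, 8.67 and 8.59 in control cells. Sorafenib replicate 1 lay close to the control arrays, and the fitted difference was -0.35 ± 0.11 (limma adjusted p = 0.0425). KMT2E also had 2 dimmer probes, with differences of 0.02 and 0.16 and no call, so the fall was seen on 1 of its 3 probes. Its call was lost without control replicate 1, 2 or 3 (-0.35, -0.32 and -0.36) and without sorafenib replicate 2 or 3 (-0.26 and -0.32). It was lost under 10 of 17 alternatives in all, and the median over its probes gave 0.02, with adjusted p from 0.013 to 0.92.

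The other KMT and SETD genes did not pass on their brightest probes. KMT5B, which places dimethyl and trimethyl marks on H4K20, differed by -0.20 ± 0.08 on the brighter probe (adjusted p = 0.0911) and fell by 0.44 on the other (-0.44 ± 0.07, limma adjusted p = 0.00477). Its relative KMT5C differed by -0.40 ± 0.14 without passing (adjusted p = 0.066). SETD1A and SETD1B, alternative catalytic subunits of COMPASS complexes that methylate H3K4, differed by -0.16 and 0.15, and SETD2, the enzyme that adds the last methyl group to H3K36, by 0.10, none of them past the threshold. KMT2A, the MLL gene, differed by -0.18 with a 95% interval of -0.69 to 0.33.

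Arginine methyltransferases had 1 gene higher among 7 and none lower, with a median of 0.09. PRMT3, a cytosolic enzyme whose best known substrate is a ribosomal protein, rose 1.29-fold (log2 0.37 ± 0.08, limma adjusted p = 0.0120). It measured 10.54, 10.57 and 10.72 in sorafenib cells and 10.23, 10.32 and 10.16 in control cells, without overlap. PRMT1, the main source of asymmetric dimethylarginine, differed by -0.12, and PRMT5, the main source of the symmetric form, by -0.14, neither past the threshold.

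In the main analysis the demethylase family was the one with fewest calls for its size. Of 12 KDM genes measured, none rose, 1 fell and 11 did not pass (8.33% past the threshold), and the median was 0.02. KDM1A, the flavin-dependent H3K4 demethylase of CoREST complexes, differed by 0.04 ± 0.06, with an interval from -0.11 to 0.19. KDM5B and KDM4C differed by 0.03 and 0.01, and KDM6A, which removes the mark that EZH2 places, by -0.11. KDM8, a jumonji domain gene, was at 6.25, 6.01 and 6.05 in sorafenib cells and 6.47, 6.40 and 6.47 in control cells, a difference of -0.34 ± 0.08 (limma adjusted p = 0.0191). That call was lost without control replicate 1 or 3 (-0.33 each) and without sorafenib replicate 2 or 3 (-0.29 and -0.31). It was lost under 8 of 17 alternatives in all, among them the analysis without background correction and the deposited values (-0.17 each) and centring on the median of all probes (-0.24), with adjusted p from 0.013 to 0.191. KDM5C passed only when control replicate 3 was left out (0.46, against 0.23 on all arrays). KDM3B differed by -0.19 ± 0.06 and narrowly missed the threshold (limma adjusted p = 0.0516), passing under 7 of 17 alternatives, so the family's count depends on the analysis.

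**Figure D2:**
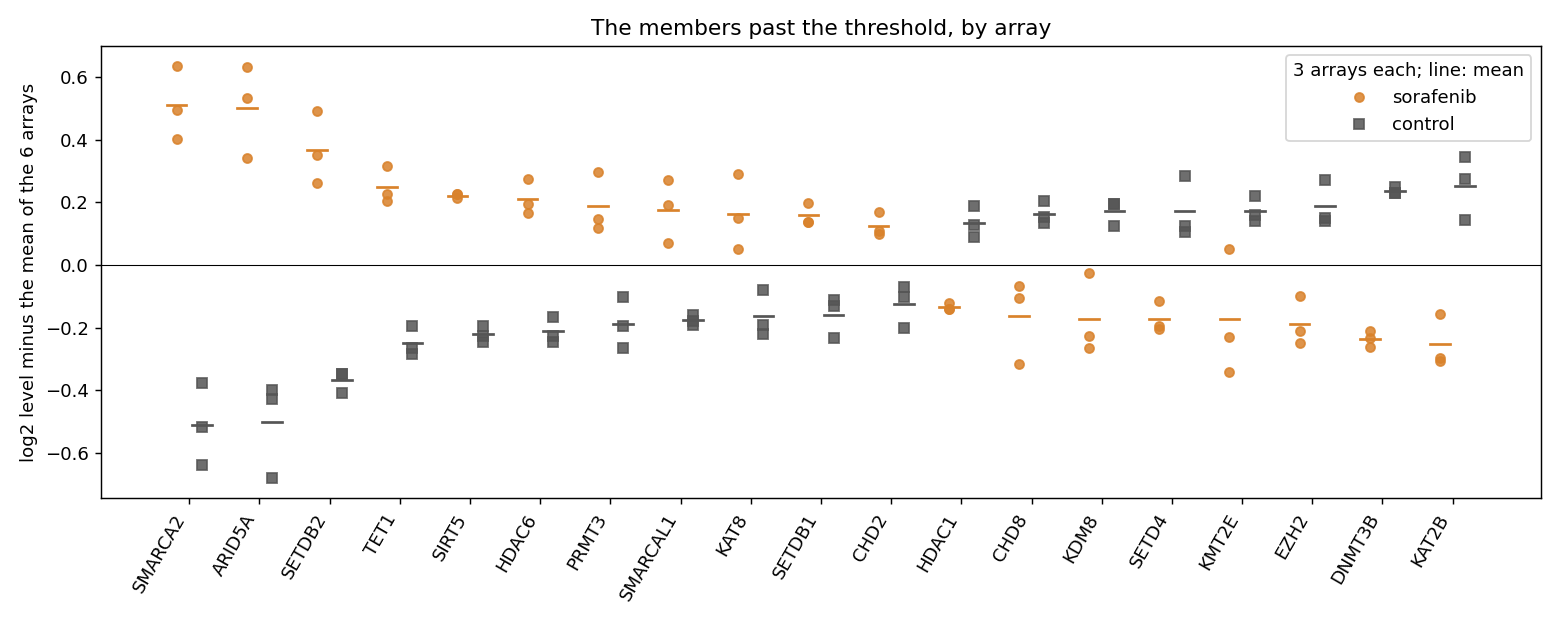
Level on each array (y axis, log2 intensity minus the mean of the 6 arrays) for the 19 members past the threshold, ordered by difference; orange circles are sorafenib arrays and grey squares control arrays, 3 each, with lines at the means. The groups do not overlap for any of the 19, which passing the threshold itself favours. Some members that did not pass, such as KDM3B and SMARCB1, did not overlap either, and the share over all genes is not given here. The gap is narrowest where 1 sorafenib array lies near the control arrays, as for KMT2E.

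Histone deacetylases showed 1 rise and 1 fall among 8 measured genes, with a median of 0.00. HDAC6, the mainly cytoplasmic deacetylase of tubulin, rose 1.34-fold (log2 0.42 ± 0.07, limma adjusted p = 0.00322). Its values were 8.76, 8.73 and 8.84 on sorafenib arrays and 8.32, 8.34 and 8.40 on control arrays. HDAC1, the class I deacetylase shared by NuRD, SIN3 and CoREST complexes, read 13.36, 13.34 and 13.34 in sorafenib cells and 13.67, 13.61 and 13.57 in control cells. It fell by 0.27 (log2 -0.27 ± 0.06, limma adjusted p = 0.0165), a call lost without control replicate 1 (-0.24) and, narrowly, without sorafenib replicate 1 or 2 (-0.28 and -0.27), and with centring on the median of all probes (-0.30), with adjusted p from 0.000656 to 0.0696 over all alternatives. HDAC2, its closest relative, differed by 0.11 ± 0.08 on the bright probe and by -0.72 ± 0.26 on a much dimmer one, neither past the threshold. HDAC3 differed by 0.08, and HDAC9 by -0.32 ± 0.11 (adjusted p = 0.0634), passing only without control replicate 2 among the fits that left out an array (-0.43).

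Among the NAD-dependent sirtuins, 1 of 6 genes rose and none fell (median 0.04). SIRT5, a mitochondrial enzyme that removes succinyl and malonyl groups from metabolic proteins, measured 10.88, 10.88 and 10.87 with sorafenib and 10.46, 10.43 and 10.41 in control cells. The rise of 0.44 ± 0.06 (1.36-fold, limma adjusted p = 0.00182) was also seen on its second brightest probe (0.51 ± 0.08), while 2 dimmer probes differed by -0.09 and -0.08 without passing. With the median over its probes the SIRT5 difference was 0.21 and no longer passed (adjusted p = 0.0955, with a range of 6.56e-05 to 0.0955 over all alternatives). SIRT1, the nuclear founding member in mammals, differed by 0.15 ± 0.15, and SIRT6 by -0.03 with a wide interval from -0.57 to 0.52.

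Acetyltransferases of the KAT family also gave 1 rise and 1 fall, among 8 genes with a median of -0.07. KAT2B, the PCAF subunit of SAGA type complexes, had the deepest fall of all called members. It stood at 9.55, 9.56 and 9.70 in sorafenib cells, against 10, 10.2 and 10.13 in control cells, a 1.42-fold fall (log2 -0.50 ± 0.08, limma adjusted p = 0.00377). KAT2A, the GCN5 paralog that takes the same place in these complexes, differed by 0.04 ± 0.06. KAT8, the H4K16 acetyltransferase, rose by 0.32 ± 0.09 (limma adjusted p = 0.0254), with 9.77, 9.87 and 10.01 in sorafenib cells and 9.53, 9.50 and 9.64 in control cells. KAT8 lost its call without control replicate 1 or 2 (0.31 and 0.29) and without sorafenib replicate 2 or 3 (0.33 and 0.26), with adjusted p from 0.00619 to 0.0795 over all alternatives. KAT7 differed by -0.27 and passed without sorafenib replicate 3 (-0.40).

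The SMARC family held the largest change among the members. Of its 12 genes, 2 rose, none fell and 10 did not pass, with a median of 0.10. SMARCA2, the BRM ATPase of BAF complexes, was at 8.91, 8.82 and 9.05 in sorafenib cells and at 7.78, 7.90 and 8.04 in control cells. The rise was 2.03-fold (log2 1.02 ± 0.10, limma adjusted p = 0.000441), and the difference lay between 0.82, without background correction, and 1.12 over the 17 alternatives. SMARCA4, the BRG1 ATPase that occupies the same position in the complex, differed by -0.19 ± 0.07 without passing (adjusted p = 0.0886). SMARCA4 passed under 2 of the 17 alternatives, over which its difference ranged from -0.27 to -0.14. SMARCAL1, an annealing helicase that acts at stalled replication forks, rose by 0.35 ± 0.07 (limma adjusted p = 0.0103), with 10.08, 9.96 and 10.16 in sorafenib cells, above 9.70, 9.71 and 9.73 in control cells.

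None of the core BAF subunits that both ATPases share passed the threshold. SMARCB1 differed by 0.10 ± 0.06, SMARCC1 by -0.02 ± 0.08, SMARCC2 by -0.12 ± 0.08, SMARCD1 by 0.09 ± 0.07 and SMARCE1 by 0.21 ± 0.10. A dimmer SMARCC2 probe had the other sign, at 0.19 ± 0.13, without passing. SMARCD3 differed by 0.22 on its brighter probe without passing, and rose by 0.50 ± 0.11 on the dimmer one (limma adjusted p = 0.0153). The ISWI ATPases SMARCA1 and SMARCA5 differed by -0.22 and -0.24, and each passed under 1 alternative, without sorafenib replicate 3 (-0.35 and -0.36).

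Of 7 ARID genes, 1 rose and none fell, with a median of -0.12. The gene that rose, ARID5A, is best known as an RNA-binding protein that stabilises inflammatory transcripts rather than as a remodeler subunit. It measured 7.27, 7.46 and 7.56 in sorafenib cells and 6.25, 6.53 and 6.50 in control cells, a 2.00-fold rise (log2 1.00 ± 0.11, limma adjusted p = 0.000826), and its second probe differed by 1.01 ± 0.11. Without background correction, as in the deposited values, the ARID5A difference was 0.60 and still passed, and it ranged from 0.60 to 1.11 over all alternatives. The BAF subunit ARID1A differed by -0.12 and the PBAF subunit ARID2 by 0.21, neither past the threshold. ARID4B, a SIN3 complex subunit, had the lowest fitted value of any member, -0.58, but its arrays were widely spread, at 9.53, 9.55 and 8.58 in sorafenib cells and 10.13, 9.84 and 9.41 in control cells. The groups overlapped, the interval ran from -1.27 to 0.12 (adjusted p = 0.175), and its 2 other probes differed by -0.59 and 0.00. Without sorafenib replicate 3 the difference was -0.25. It passed with the replicate number as a block (-0.58, limma adjusted p = 0.0207) and with the median over its probes (-0.59), with adjusted p from 0.0207 to 0.393 over all alternatives.

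CHD remodelers again gave 1 rise and 1 fall, among 9 genes with a median of 0.05. CHD8, a regulator of beta-catenin and of neurodevelopmental genes, was at 11, 11.04 and 10.79 with sorafenib and 11.31, 11.26 and 11.24 in control cells, a fall of 0.33 (log2 -0.33 ± 0.08, limma adjusted p = 0.0221). This call was lost without control replicate 1 or 2 (-0.31 and -0.33) and with centring on the median of all probes (-0.28), with adjusted p from 0.00245 to 0.108 over all alternatives. CHD2 rose by 0.25 ± 0.07 (limma adjusted p = 0.0262), with 6.92, 6.93 and 6.99 in sorafenib cells and 6.62, 6.72 and 6.75 in control cells. It lost its call without control replicate 1 or 2 (0.21 and 0.26) and without any 1 of the sorafenib arrays (0.26, 0.26 and 0.23). It was lost under 8 of 17 alternatives in all, among them the analysis without background correction and the deposited values (0.15 each), with adjusted p from 0.0139 to 0.128. Its relative CHD1 differed by 0.30 ± 0.10 and narrowly missed the threshold (adjusted p = 0.0551), passing under 11 of 17 alternatives and, among the fits without 1 array, in that without control replicate 2 (0.37). CHD9 passed without sorafenib replicate 3 (0.30, against 0.16 on all arrays). The NuRD ATPases CHD3 and CHD4 differed by 0.15 and 0.05.

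Polycomb repressive complex PRC2 places the repressive H3K27 methyl mark. Its catalytic gene EZH2 measured 9.47, 9.43 and 9.58 in sorafenib cells and 9.82, 9.83 and 9.95 in control cells, a 1.29-fold fall (log2 -0.37 ± 0.07, limma adjusted p = 0.00917). A second EZH2 probe also fell (-0.34 ± 0.07), and the dimmest of its 3 probes differed by -0.39 ± 0.13 without passing (adjusted p = 0.0538). With centring on the median of all probes the EZH2 difference was -0.28 and did not pass. EED, the subunit that reads the mark, was at 6.56, 6.16 and 6.44 with sorafenib and 7, 7.01 and 6.38 in control cells. The groups overlapped through control replicate 3, and the difference of -0.41 ± 0.19 passed under 1 alternative, without that array (-0.62, limma adjusted p = 0.0177, with a range of 0.0177 to 0.34 over all alternatives). SUZ12, the scaffold subunit, read 12.54, 12.55 and 12.48 with sorafenib and 12.58, 12.74 and 12.58 in control cells, a difference of -0.11 ± 0.07 (adjusted p = 0.281).

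Of the 3 measured members of the TET and DNMT3 families, which oxidise or write DNA methylation, 1 fell, 1 rose and 1 did not pass. DNMT3B, a de novo methyltransferase, fell 1.39-fold (log2 -0.47 ± 0.06, limma adjusted p = 0.00145). Its 3 sorafenib arrays, at 9.61, 9.58 and 9.63, and its 3 control arrays, at 10.09, 10.07 and 10.07, were each tightly grouped, and a second probe fell by 0.55 (-0.55 ± 0.08). TET1, which oxidises methylcytosine, rose 1.41-fold (log2 0.50 ± 0.07, limma adjusted p = 0.00182), with 7.90, 7.81 and 7.79 in sorafenib cells and 7.32, 7.39 and 7.30 in control cells. A dimmer TET1 probe differed by 0.18 without passing. DNMT3A was at 7.93, 7.79 and 7.12 with sorafenib and 7.68, 7.52 and 7.32 in control cells, and its groups overlapped (0.10 ± 0.21, adjusted p = 0.741).

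**Figure D3:**
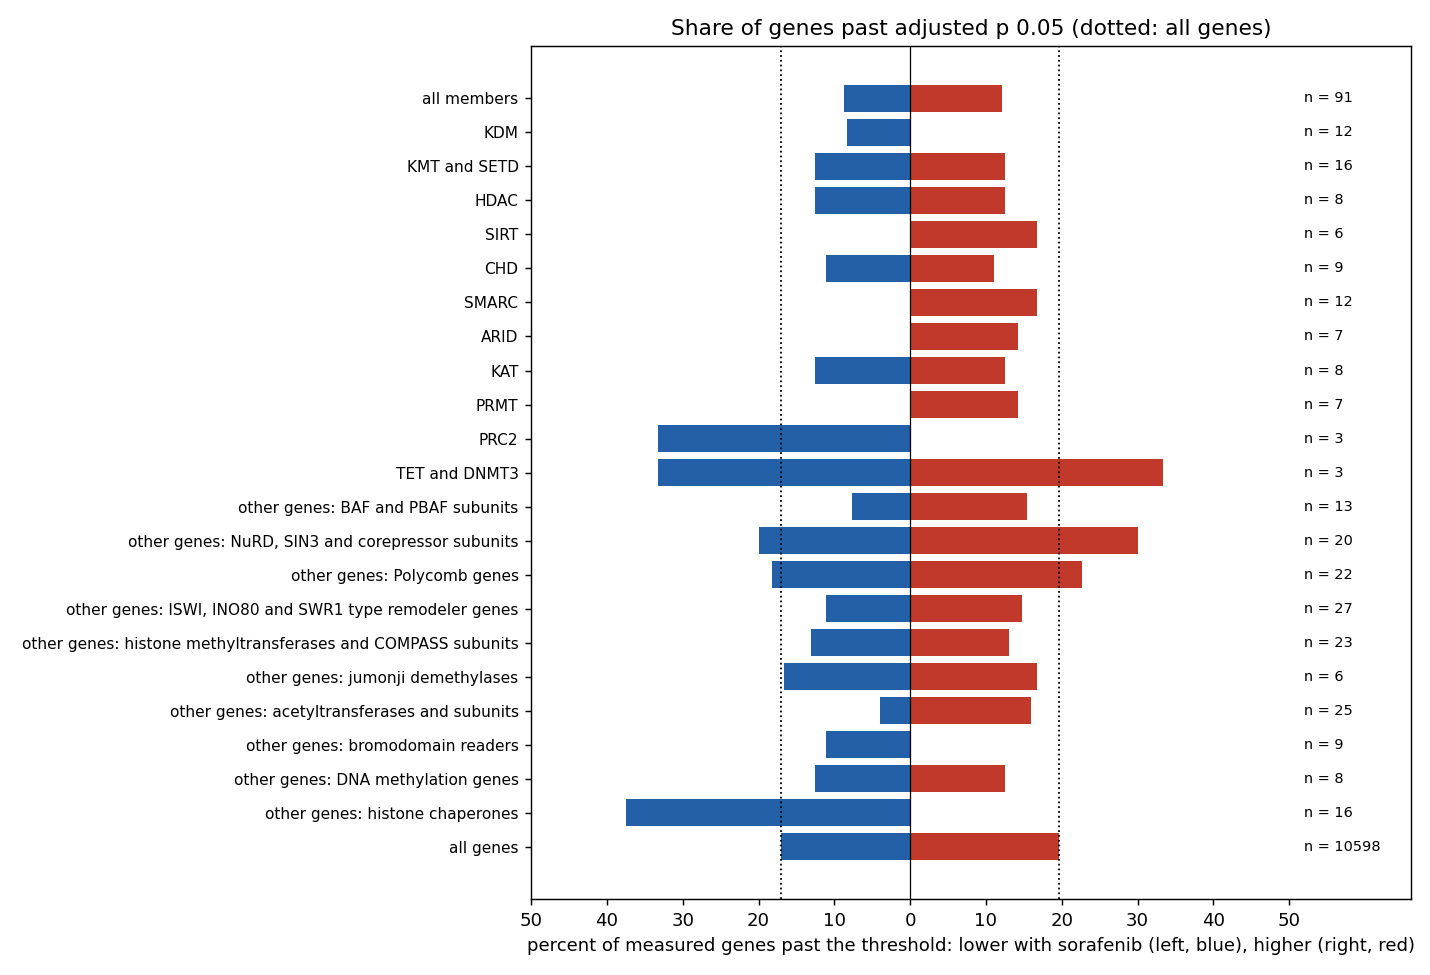
Share of measured genes past an adjusted p of 0.05 (x axis, percent; lower with sorafenib to the left, higher to the right) in the 11 families, in 10 lists of other chromatin genes and among all genes, with the number measured beside each bar; dotted lines mark the shares of all genes. The families of 6 or more genes lie inside both dotted lines, and the 2 families of 3 genes reach beyond them with 1 gene on a side.

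Proliferation markers moved with the treatment. Of 12 measured, 11 fell and none rose, and their summed normalized intensity was 21924 to 22305 on sorafenib arrays and 30701 to 30930 on control arrays. RRM2, the ribonucleotide reductase subunit, fell by 1.59 and PCNA, the replication clamp, by 0.81 (log2 -1.59 and -0.81). EZH2, UHRF1 and several chaperone genes named below are known to be expressed with the cell cycle, and the part of these markers' change in the falls of EZH2, DNMT3B, HDAC1 and those genes was not tested. Of the markers of other cell types, PTPRC, CD3E, all 4 endothelial genes (PECAM1, VWF, CDH5, KDR), COL1A1, COL3A1, DCN and ACTA2 were detected on no array, whereas LYZ and LUM were detected on all 6 and fell by 1.82 and 0.59 (log2 -1.82 and -0.59). CD68 was detected on all 6 and did not pass (-0.05 ± 0.10), and PDGFRB fell, being detected on no sorafenib array and on all 3 control arrays. The summed intensity of the 2 leukocyte genes measured of 4 named on the platform was 593 to 678 on sorafenib arrays and 928 to 1021 on control arrays, and that of the 2 measured of 6 stellate and fibroblast genes was 1093 to 1146 on sorafenib arrays and 1607 to 1864 on control arrays. The part of these in the members' changes was not tested. Of 9 liver genes, 2 rose and 2 fell; ALB was bright on every array and did not pass (-0.05 ± 0.07), and AFP fell by 0.39 (log2 -0.39). In bulk RNA a smaller share of cells with a transcript and less of it per cell cannot be told apart.

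Partners of these enzymes were counted from lists of 204 other chromatin genes. Of these, 169 were measured, 26 rose and 25 fell (30.2% past the threshold, median -0.02). Among all 10598 genes the share past the threshold was 36.7% (19.7% higher and 17% lower), to be read beside each list below. Histone chaperones, which deliver histones to newly copied DNA among other tasks, showed 6 falls and no rise among 16 (37.5%). ASF1B fell by 0.91, and the chromatin assembly factor subunit CHAF1A and the CENP-A chaperone HJURP by 0.46 each (log2 -0.91, -0.46 and -0.46). Among DNA methylation genes outside the families, 1 of 8 rose and 1 fell. UHRF1, which guides maintenance methylation after replication, fell 2.01-fold (log2 -1.01 ± 0.07, limma adjusted p = 0.000190), and its paralog UHRF2 rose by 0.31. UHRF2 lost its call without control replicate 1, 2 or 3 (0.31, 0.33 and 0.27) and without sorafenib replicate 1 or 2 (0.31 and 0.22).

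NuRD, SIN3 and CoREST type corepressor subunits had 6 rises and 4 falls among 20 genes (50%, median 0.03). The CoREST scaffold genes RCOR2 and RCOR3 rose by 0.89 ± 0.17 and 0.70 ± 0.08, and the SIN3 subunit SAP18 by 0.53. Of 22 Polycomb genes outside PRC2's core, 5 rose and 4 fell (40.9%, median -0.07). PCGF5, a PRC1 subunit, rose by 0.87 ± 0.14, while the PRC2 accessory gene PHF19 fell by 0.41 (-0.41 ± 0.08) and the PRC1 gene PHC3 by 0.36 (-0.36 ± 0.09). PHC3 lost its call without control replicate 1 or 2 (-0.36 and -0.32) and without sorafenib replicate 2 (-0.35). Without background correction PCGF5 differed by 0.49 and PHC3 by -0.21, both still past the threshold, and the median over its probes gave PHF19 -0.93.

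A list of 27 measured genes held ISWI, INO80 and SWR1 type remodeler genes and others outside these types, such as HLTF and HELLS. In it 4 rose and 3 fell (25.9%, median -0.06). EP400, an ATPase of the TIP60 complex, rose 1.66-fold (log2 0.73 ± 0.08), HLTF rose by 0.57, and HELLS, a remodeler needed for DNA methylation, fell by 0.54 (log2 -0.54). Of 13 further BAF and PBAF subunits, 2 rose and 1 fell, with BCL11A at 0.47, DPF2 at 0.45 and BICRA at -0.26. Other histone methyltransferases and COMPASS subunits had 3 rises and 3 falls among 23, with PRDM4 at 0.65, PRDM10 at -0.63 and the H3K9 methyltransferase SUV39H1 at -0.44. Other acetyltransferase genes had 4 rises and 1 fall among 25, with SGF29 at 0.43, NCOA1 at 0.39 and ING1 at -0.48, which with the median over its probes was -0.17 and did not pass. Other jumonji genes had 1 rise and 1 fall among 6 (HSPBAP1 0.43, RIOX1 -0.31), and bromodomain readers had no rise and 1 fall among 9 (ATAD2, -0.36). ATAD2 lost its call without control replicate 1 or 2 (-0.33 each) and without sorafenib replicate 1 or 3 (-0.37 and -0.30), BICRA without control replicate 1 (-0.25) or sorafenib replicate 1 (-0.26), and RIOX1 without sorafenib replicate 2 (-0.28).

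Close paralogs were set side by side in 21 pairs, which were put together after the members' values had been seen, so the differences between their responses are a description without a test. The widest was between the BAF ATPases: on the same arrays the response of SMARCA2 exceeded that of SMARCA4 by 1.21 ± 0.12 (SE over arrays). ARID5A exceeded ARID5B by 1.14 ± 0.19. KAT2B lay below KAT2A by 0.55 (-0.55 ± 0.06), SETDB2 above SETDB1 by 0.42 ± 0.10, and HDAC2 above HDAC1 by 0.38 ± 0.07. The order of the HDAC pair turned with the median over each gene's probes, which gave HDAC2 -0.31 and HDAC1 -0.27. DNMT3B lay below DNMT3A by 0.58 on average (-0.58 ± 0.28), and there the per-array differences overlapped between groups because DNMT3A was variable. At the other end SMARCA1 and SMARCA5 differed in response by 0.02 ± 0.06 and CHD2 and CHD1 by -0.05 ± 0.08.

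**Figure D4:**
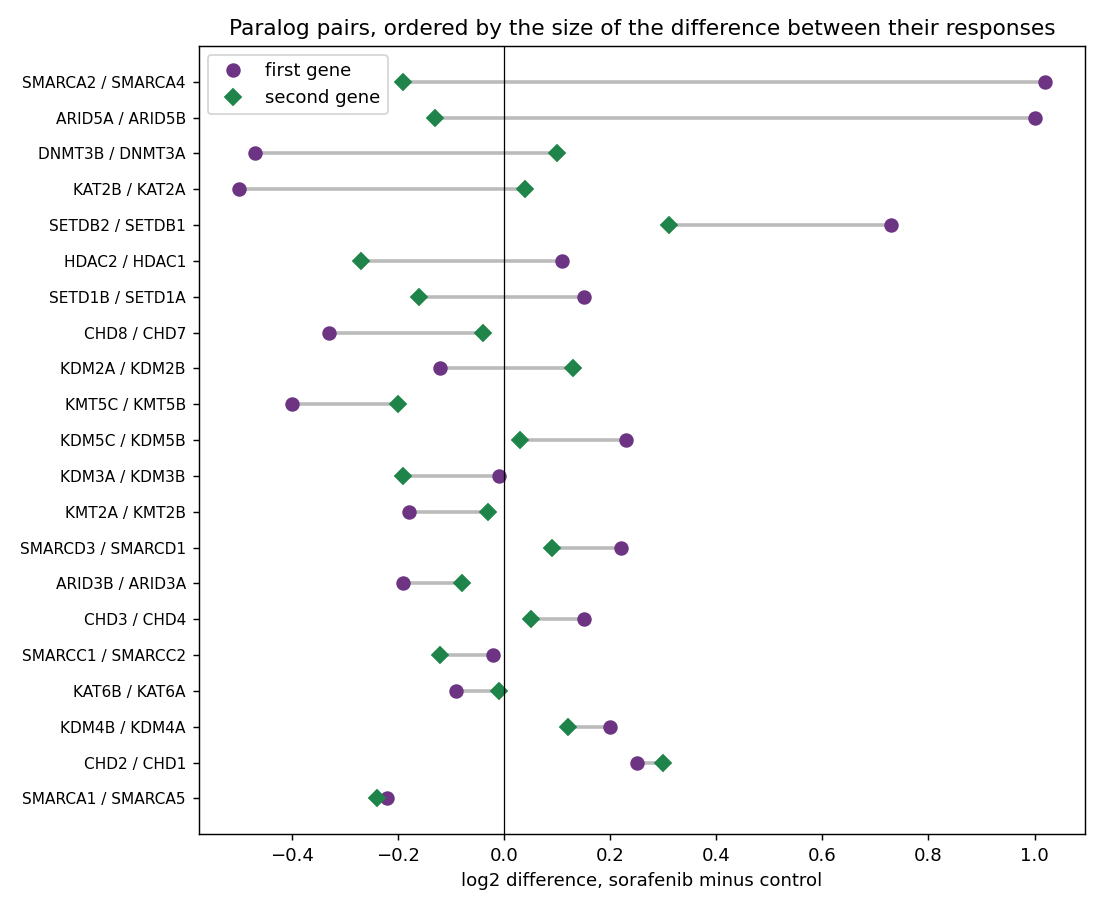
Log2 differences (x axis, sorafenib minus control) of 21 paralog pairs, with the first gene of each pair as a purple circle and the second as a green diamond, ordered by the difference between the 2 responses. The pair SMARCA2 and SMARCA4 spans 1.02 and -0.19, and SMARCA1 and SMARCA5 lie together at -0.22 and -0.24.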

How the data were processed

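RNA of 6 Hep3B samples, 3 per group, was labelled with a TargetAmp-Nano kit and hybridised to Illumina BeadChips, per the labels' protocols. The authors deposited non-normalized intensities with detection p-values for 47321 probes, per the file headers, and a table of log2 values whose making is not given in the sources used here. Taking log2 of the intensities and quantile-normalizing them gave the deposited log2 values to within 5e-07. Scanner software is not given in the sources used here.

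Here intensities were background-corrected by limma's neqc from the detection p-values (offset 16), quantile-normalized and log2-transformed, with limma 3.58.1 in R 4.3.3. Tests covered the 16909 probes with a detection p under 0.01 on 3 or more arrays. Between 16214 and 17380 probes were detected per array, and the number of arrays limits the precision. Values correlated across tested probes at 0.992 to 0.997 within a group and 0.977 to 0.981 between groups. Each probe was fitted with lmFit and eBayes, two-sided and without a block, with Benjamini-Hochberg adjustment over all tested probes. Errors of differences are moderated standard errors (SE).

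Probe names came from the platform annotation (30112 probes with 1 symbol, 8 with several, 17201 with none), and the symbols of all 91 members were current by Entrez ID. The members and lists were chosen with earlier results of these data known. Per-array values are given for each member past the threshold with a difference of at least 0.4, for the largest called difference of each family, and for measured PRC2 and DNA methylation members; those of the remaining called members and of ARID4B were added after values were seen. Any member may be named, and of each other list up to 3 genes with the largest called differences; other markers were named by their lists. Alternatives covered background, normalization, filter, block, variance model, array weights, probe summary and leaving out each array. The procedure was tested on simulated data.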

Additional observations from a re-analysis of the deposited data

How the results depend on the processing

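Over 17 alternative analyses, 10 of the 19 called members kept their call in every one (SMARCA2, ARID5A, SETDB2, TET1, HDAC6, PRMT3, SMARCAL1, SETDB1, KAT2B, DNMT3B) and 9 lost it in at least 1. Of the 72 others, 57 were never called and 15 were called in at least 1. Direction changed for 1 called member: the median over its probes gave KMT2E 0.02. Without each array in turn, 9 to 12 members rose and 4 to 9 fell, and 2715 to 3374 genes passed, against 3885. Family medians then ranged from -0.15 to 0.01 (KAT), -0.09 to 0.08 (HDAC), 0.02 to 0.09 (SIRT), 0.00 to 0.03 (KDM), -0.05 to 0.01 (KMT and SETD), 0.03 to 0.08 (CHD), 0.07 to 0.11 (SMARC and PRMT alike), -0.15 to -0.05 (ARID), -0.41 to -0.29 (PRC2) and -0.05 to 0.35 (TET and DNMT3). Centring on the median of all probes left 2 falls and gave medians of 0.11 (KDM), 0.06 (KMT and SETD), 0.08 (HDAC), 0.17 (SIRT), 0.13 (CHD) and 0.18 (PRMT), with SETD4, EZH2, HDAC1, CHD8, KDM8 and KMT2E uncalled and the median of all genes at 0.07. Centring on the tested probes gave SMARC 0.04. PRC2 had -0.23 both without background correction and in the deposited values. Detection on all 6 arrays gave SIRT 0.09. Without the filter on dim probes, medians were 0.10 (HDAC), 0.10 (CHD) and 0.02 (PRMT), and 16.7% of 108 members passed, against 16.9% of 20045 genes, a set that adds probes near background. The median over probes gave HDAC -0.14. The cause of these shifts was not tested. The replicate block gave 12 rises, 8 falls and 3627 genes. The numbers were not taken as pairs because nothing in the labels says that they pair the samples. Deviations of same-numbered samples correlated at 0.09, 0.10 and 0.25, and those of differently numbered samples at -0.17 to 0.10. Not every sample correlated best with its own number, and a shared effect of the numbers could not be judged from these values. Of the other genes named, RRM2, PCNA, UHRF1, ASF1B, EP400, RCOR2, RCOR3 and PCGF5 kept their calls under all 17, while UHRF2 lost it under 6, PHC3 and ATAD2 under 4 each, BICRA under 3, RIOX1 under 2, and PHF19, SUV39H1, ING1 and CHAF1A under 1 each. The intervals of SIRT6 (-0.57 to 0.52) and KAT6B (-0.59 to 0.40), the members not detected on all arrays, are wide.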
